A study of Mus musculus with 2 samples.

Results

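Glycolysis, lactate formation and the control of pyruvate were examined through a fixed list of 44 genes, which runs from glucose uptake to the entry of pyruvate into mitochondria and includes the neighbouring enzymes of glycogen. Of these, 40 had a row in the table of 14197 genes. Slc2a3, Slc16a3, Pdk4 and Pygl had none and were not analysed here. The cells were 4T1, a murine breast cancer line of epithelial origin with a wild-type genotype by its label. They were kept in vitro for 24 h with astragalin (AS) at 20 μM, a flavonoid glucoside of kaempferol, or with the vehicle. The study's methods describe 4T1 cells that carry luciferase and a puromycin marker, and whether the sequenced cells were of that kind is not given in the sources used here. There was 1 RNA-seq library per condition, so no difference below has a replicate check and no p-value is given. The treatment and the dish cannot be told apart.

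Levels are RPKM, reads divided by exon kilobases and by library size. The length is that of all exons of a gene, 4133 bases for Gapdh, whose principal transcript has 1420, so levels compare only roughly between genes. Multiplied by exon length, the RPKM gave back whole reads for 12735 genes, among them all 40 of the listed genes in the table, with library sizes of 44909683 for AS and 50820728 for the vehicle. The fold change is log2 of the AS over the vehicle RPKM after 0.1 was added to both. Beside it stands the 95% Clopper-Pearson interval of the read ratio, which covers counting error only. The lowest read number of a listed gene in a library was 204 and the highest was 129797. The epithelial markers Epcam, Krt8, Krt18, Krt7, Krt19, Cdh1, Cldn4 and Cldn7 were all present, with a summed RPKM of 1823 after AS and 2327 after the vehicle. Of the leukocyte markers 2 of 5 were listed, at up to 0.407 RPKM, of the endothelial markers 0 of 3, and of the fibroblast markers 3 of 4, at up to 4.24 RPKM.

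Glycolysis splits glucose into pyruvate in the cytosol and yields ATP and NADH. Tumor cells such as 4T1 commonly turn much of that pyruvate into lactate, which regenerates NAD+ and leaves the cell through monocarboxylate transporters. The alternative route takes pyruvate through the mitochondrial carrier to the pyruvate dehydrogenase complex, which pyruvate dehydrogenase kinases switch off and a phosphatase switches on. Many genes of the cytosolic route are known targets of HIF-1 and MYC.

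Most cytosolic enzymes, among them the leading enzyme of each step below hexokinase, were lower in the AS library, whereas the genes of the pyruvate dehydrogenase complex were close to level. Stbd1, which encodes a glycogen-binding membrane protein, was the gene with the largest increase among the 40, with a level 2.47-fold that of the vehicle. Of the 40 genes, 25 had a log2 fold change below 0, compared with 39.1% of all genes, and their median was -0.25 against 0.07 over all genes. Under TMM scaling, 49.9% of all genes were below 0, and Pfkm, Dlat, Pdp1 and Mpc1 joined the listed genes below 0. At a threshold of 1.5-fold on this scale, 7 genes fell and 2 rose, where 2.01% of all genes fell and 3.56% rose by as much. Past a 2-fold threshold, 0 genes fell and 1 rose, against 0.31% and 0.662% of all genes. The 40 genes together took 0.751% of the AS library and 0.955% of the vehicle library. In bulk RNA, a lower share of cells that express a gene and less of its RNA per cell cannot be told apart.

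**Figure D1:**
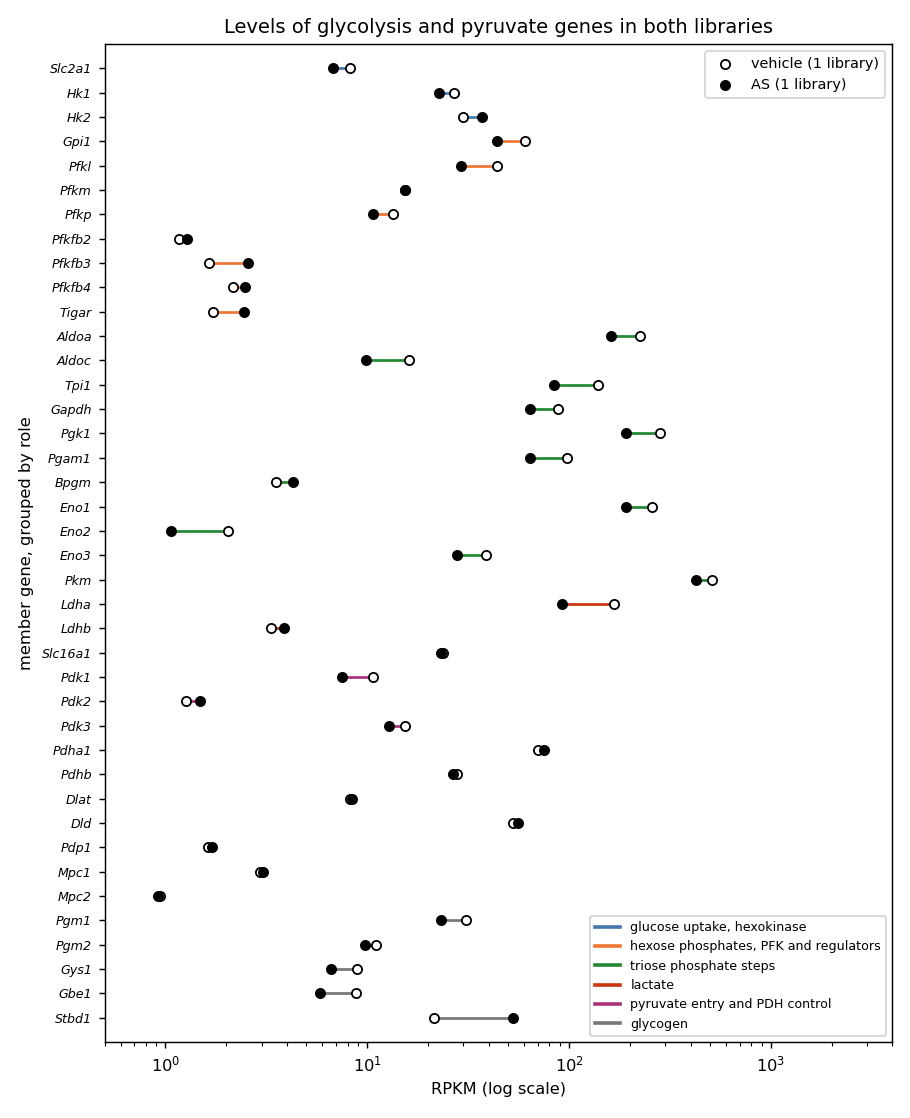
RPKM (log axis) of the 40 listed genes in the vehicle library (open circles) and the AS library (filled circles), 1 library each, with connecting lines coloured by role. The enzymes from Aldoa to Ldha lie mostly to the left in the AS library, and Stbd1 lies to the right, at 52.8 against 21.4.

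The enzyme with the highest RPKM at each of the 10 steps from glucose 6-phosphate to lactate was lower in the AS library. These were Gpi1, Pfkl, Aldoa, Tpi1, Gapdh, Pgk1, Pgam1, Eno1, Pkm and Ldha, picked after their levels were seen. Their log2 fold changes ran from -0.84 to -0.26 with a median of -0.52, and 4 of them passed 1.5-fold. All but Pfkl had a mean of at least 50 RPKM. Of all 1082 genes at that level, 691 were below 0 and 31 fell by more than 1.5-fold. Together the 10 enzymes held 385361 reads after the vehicle and 251274 after AS, which is 0.758% and 0.560% of the libraries. The 4 subunits of the pyruvate dehydrogenase complex held 0.0605% and 0.0632%.

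Ldha, the lactate dehydrogenase subunit that favours lactate formation, was among the lowest genes of the whole table, at place 81 from the bottom of 14197. In GRCm38 it spans bases 46841475 to 46855627 of chromosome 7 (plus strand). The level was 92.6 RPKM after AS and 166 RPKM after the vehicle, which were 13760 and 27962 reads. This is a log2 fold change of -0.84 (interval -0.87 to -0.82). Ldhb, the subunit more abundant in oxidative tissues, stood at 3.86 and 3.33 RPKM, with a log2 fold change of 0.20 and an interval that spans 0 (-0.04 to 0.46). The ratio of Ldha to Ldhb RPKM was 24.0 after AS and 49.9 after the vehicle, a 2.08-fold difference. Ldha nevertheless made up 96.0% of the pair after AS and 98.0% after the vehicle. Slc16a1, which encodes the lactate transporter MCT1, had 23.2 and 23.6 RPKM, and the interval of its log2 ratio was -0.08 to 0.03 in the scaling of the authors. Under the other 3 scalings its log2 fold change was -0.095 to -0.10, so whether it differed beyond counting error depends on the scaling.

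Promoters were searched for the letters ACGTG on either strand, a form of the core of the hypoxia response element, which can also read GCGTG. The letters ACGTG also lie inside the palindrome CACGTG bound by MYC and USF factors. The windows came from RefSeq (GRCm38.p6) and reached from 250 bases before to 50 bases after each annotated start. They were matched by symbol for 39 of the 40 genes, Pdp1 being without one. The upstream 250 bases of 5 genes are shown 5′ to 3′ on the strand of the gene, with each match in capitals. Ldha was chosen because it has the most matches and a large decrease, and Pgk1 and Pgam1 because they belong to the same group of lower enzymes. Pfkfb3 and Stbd1 are the genes that rose by more than 1.5-fold.
Ldha: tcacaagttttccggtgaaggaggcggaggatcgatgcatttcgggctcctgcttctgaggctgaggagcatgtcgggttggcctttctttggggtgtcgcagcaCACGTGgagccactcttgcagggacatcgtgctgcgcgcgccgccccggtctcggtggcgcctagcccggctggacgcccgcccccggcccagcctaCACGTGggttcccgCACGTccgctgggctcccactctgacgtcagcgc
Pgk1: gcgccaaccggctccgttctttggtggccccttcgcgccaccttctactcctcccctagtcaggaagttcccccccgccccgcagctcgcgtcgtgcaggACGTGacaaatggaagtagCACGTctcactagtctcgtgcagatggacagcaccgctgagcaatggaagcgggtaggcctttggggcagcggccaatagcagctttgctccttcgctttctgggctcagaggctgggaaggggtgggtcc
Pgam1: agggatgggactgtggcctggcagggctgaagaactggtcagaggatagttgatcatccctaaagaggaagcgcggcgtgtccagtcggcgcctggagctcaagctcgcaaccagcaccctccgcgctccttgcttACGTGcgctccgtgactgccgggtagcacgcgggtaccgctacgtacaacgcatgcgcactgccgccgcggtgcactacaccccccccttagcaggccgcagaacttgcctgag
Pfkfb3: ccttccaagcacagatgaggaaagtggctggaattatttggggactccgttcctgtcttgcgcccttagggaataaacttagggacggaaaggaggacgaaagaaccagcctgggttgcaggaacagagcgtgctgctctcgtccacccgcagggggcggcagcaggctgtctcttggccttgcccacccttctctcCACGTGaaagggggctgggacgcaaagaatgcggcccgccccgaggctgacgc
Stbd1: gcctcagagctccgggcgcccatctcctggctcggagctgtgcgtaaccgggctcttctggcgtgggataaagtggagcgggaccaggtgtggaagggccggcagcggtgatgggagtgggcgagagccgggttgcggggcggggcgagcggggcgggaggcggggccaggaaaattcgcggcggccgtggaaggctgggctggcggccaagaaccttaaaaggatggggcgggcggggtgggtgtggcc
Their positions are chr7:46845554-46845803 (plus strand) for Ldha, chrX:106186850-106187099 (plus) for Pgk1, chr19:41911621-41911870 (plus) for Pgam1, chr2:11502091-11502340 (minus) for Pfkfb3 and chr5:92602801-92603050 (plus) for Stbd1. Those of Ldha and Pfkfb3 are each 1 of 2 annotated starts of the gene, picked for more upstream ACGTG counted over both strands. The lower genes shown all have a match, which does not hold for every lower gene. Of the bases shown, 11 for Pfkfb3 and 10 for Stbd1 lie in exons of GENCODE M21. The Ldha stretch held 3 separate matches, of which those starting 145 and 48 bases before the start site were the full palindrome. The Pgk1 stretch held 2, the Pgam1 stretch 1, the Pfkfb3 stretch 1 palindrome, and the Stbd1 stretch 0.

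At least 1 window with ACGTG was found for 19 of the 39 genes (48.7%), whereas 29.7% of the 9680 genes of the table with a window had one. Among the listed genes below 0 the number was 14 of 25, among those above 0 it was 5 of 14, and among the 7 that fell by more than 1.5-fold it was 3. Several lower genes, such as Tpi1 and Pfkl, were without the letters, and Pfkfb3, which rose, had them. A link between the letters and the fold changes was not tested. The palindrome was in a window of 2 of the 25 genes below 0 and of 4 of the 14 above 0. With both forms of the core counted, ACGTG or GCGTG was found for 30 of the 39 genes (76.9%), compared with 68.1% of all genes. It was found for 20 of the 25 below 0, 10 of the 14 above 0 and 4 of the 7 that fell by more than 1.5-fold. A match is a description of letters and not of binding.

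The triose phosphate steps were the most evenly lower group. Of 11 genes, 10 were below 0, 4 fell by more than 1.5-fold, and the median was -0.47. Eno2, the neuronal enolase, had the lowest value of the whole list at -0.87, from 226 reads after AS and 488 after the vehicle, and stood at 1.07 and 2.04 RPKM. Its few reads give a wide interval, from -1.17 to -0.70, and with 1 RPKM added the value was -0.56. Tpi1, which interconverts the triose phosphates, stood at 84.2 RPKM after AS and 138 RPKM after the vehicle, with a log2 fold change of -0.72 (interval -0.75 to -0.68). The Tpi1 gene lies on chromosome 6 from 124810586 to 124814296. Aldoc, an aldolase best known from brain, fell by 0.70 on the log2 scale, from 16.1 to 9.92 RPKM. Pgam1, the phosphoglycerate mutase, fell by 0.60, from 97.5 to 64.3 RPKM.

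The other abundant enzymes of this group were lower but did not pass 1.5-fold in the scaling of the authors. Pgk1, which makes the first ATP of the pathway, stood at 191 RPKM after AS and 282 RPKM after the vehicle, and -0.56 on the log2 scale was the nearest to the threshold from within. It passed under TMM scaling (-0.63) and under scaling by the median of ratios (-0.63) or the upper quartile (-0.64). Aldoa, the main aldolase, stood at 162 and 224 RPKM (-0.47). Eno1, the main enolase, stood at 192 and 259 RPKM (-0.43), and the muscle enolase Eno3 27.9 and 38.8 (-0.47). Pkm, the pyruvate kinase and the most abundant gene of the list, differed least among the leading enzymes. The level was 425 RPKM after AS and 511 RPKM after the vehicle, and its log2 fold change was -0.26 with an interval from -0.28 to -0.25. Tpi1 and Pkm, in the same linear route, thus differed from each other, with a Tpi1 to Pkm ratio of 0.198 after AS and 0.271 after the vehicle. Bpgm, which diverts a triose phosphate into bisphosphoglycerate, was the single gene of the group above 0, at 4.28 and 3.54 RPKM (0.27).

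Gapdh, the dehydrogenase of the triose phosphate steps, was also the internal control of the real-time PCR in the study's methods. Its gene spans bases 125161715 to 125166467 of chromosome 6. The level was 64.4 RPKM after AS and 87.8 RPKM after the vehicle, from 11956 and 18440 reads, and the log2 fold change was -0.45 with an interval from -0.48 to -0.41. A transcript with the same RPKM in both libraries therefore had a ratio to Gapdh that was 1.36-fold higher in the AS library.

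Reads of some of these enzymes are uncertain because near-identical copies exist. The table also listed Eno1b at 35.8 RPKM after AS and 49.1 after the vehicle, Pgam1-ps2 at 13.0 and 18.5, and Pgk1-rs7 at 4.97 and 9.17. These 3 entries, which carry the names of copies of Eno1, Pgam1 and Pgk1, were lower after AS as well. How reads that match several places were counted is not given in the sources used here. Of the 9 listed genes beyond 1.5-fold in either direction, 8 shared no exon base with another gene of GENCODE M21, and Tpi1 shared 1.24% with a gene on the opposite strand. Of the other listed genes, Pkm shared 15.3% of its exon bases with the entry Gm49759 on its own strand. Pfkfb2 shared 17.4% and Pfkm 10.2% with other entries on their own strand. On the opposite strand, Mpc1 shared 23.1%, Pdha1 16.1%, Pgm1 13.6% and Gpi1 11.5%.

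**Figure D2:**
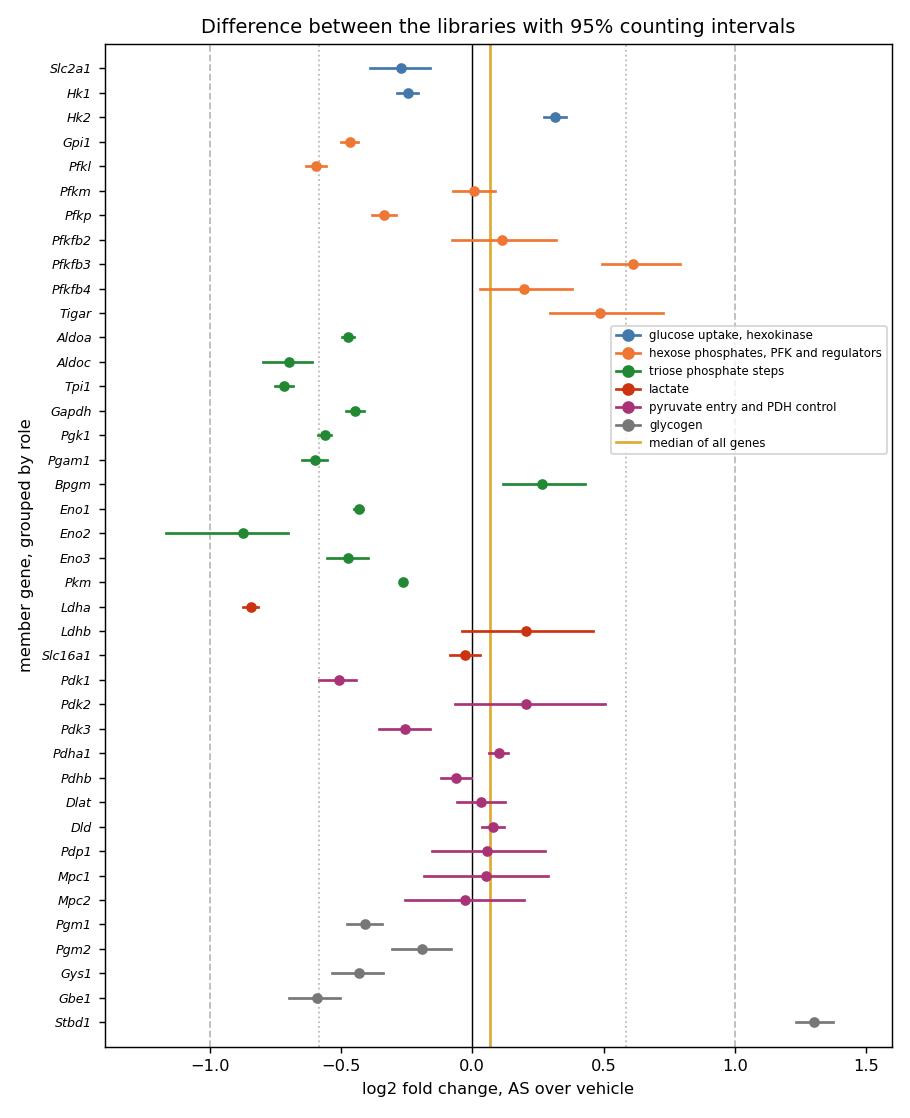
Log2 fold change of AS over vehicle for the 40 genes (points, 0.1 RPKM added) with the 95% Clopper-Pearson interval of the read ratio (bars, counting error only), by role. Dashed and dotted lines mark 2-fold and 1.5-fold in both directions, and the yellow line marks the median of all genes, 0.07. The triose phosphate enzymes lie left of 0 except Bpgm, and the subunits of pyruvate dehydrogenase lie close to 0.

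At the entry of glucose the isoforms went apart. Slc2a1, the glucose transporter GLUT1, stood at 6.80 RPKM after AS and 8.22 RPKM after the vehicle, which is -0.27 on the log2 scale with an interval from -0.39 to -0.16. Hk1, the widely expressed hexokinase, stood at 22.7 and 26.8 RPKM (-0.24), and Hk2, the hexokinase typical of tumors and muscle, 36.9 and 29.7 (0.31). The intervals of both hexokinases lie on opposite sides of 0, from -0.29 to -0.20 and from 0.27 to 0.36. Hk2 therefore made up 62.0% of hexokinase RPKM after AS and 52.5% after the vehicle. Which hexokinase leads depends on the length used, because the RPKM divides by the exons of all transcripts. With reads divided by the length of the principal transcript, Hk2 made up 44.3% and 35.1%, and its higher share after AS was kept.

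Among the genes of phosphofructokinase and its regulators, Pfkl fell and Pfkfb3 rose by more than 1.5-fold. Pfkl, the liver-type subunit, fell by 0.59 on the log2 scale, from 44.1 to 29.2 RPKM, just past the threshold, and did not pass it with 1 RPKM added (-0.58). Pfkp, the platelet-type subunit, stood at 10.6 RPKM after AS and 13.4 RPKM after the vehicle (-0.33), and Pfkm, the muscle-type subunit, 15.5 and 15.4 (0.01). Pfkl thereby went from 60.5% of the summed RPKM of the subunits after the vehicle to 52.8% after AS, and Pfkm from 21.1% to 28.0%. Per length of the principal transcript, the Pfkm share was 12.7% and 17.2%, and in undivided reads 9.77% and 13.3%. Upstream of them, Gpi1, which isomerizes glucose 6-phosphate, stood at 43.9 RPKM after AS and 60.7 RPKM after the vehicle (-0.47).

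The bifunctional enzymes Pfkfb2, Pfkfb3 and Pfkfb4 set the amount of fructose 2,6-bisphosphate, the main activator of phosphofructokinase. Pfkfb3, the isoform with the strongest kinase activity, rose by 0.61 on the log2 scale, at 2.57 RPKM after AS and 1.65 RPKM after the vehicle. It came from 873 and 633 reads, and the interval was 0.49 to 0.79. It no longer passed 1.5-fold with 1 RPKM added (0.43) or under TMM scaling (0.54). Pfkfb4 stood at 2.49 and 2.16 RPKM (0.20) and Pfkfb2 1.28 and 1.17 (0.11), the latter with an interval that spans 0. Tigar encodes a phosphatase that lowers the same activator and so opposes Pfkfb3. The level was 2.45 RPKM after AS and 1.72 RPKM after the vehicle, a log2 fold change of 0.49 (interval 0.30 to 0.73). Both genes of opposed function were thus higher in the AS library, at levels far under those of the enzymes.

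**Figure D3:**
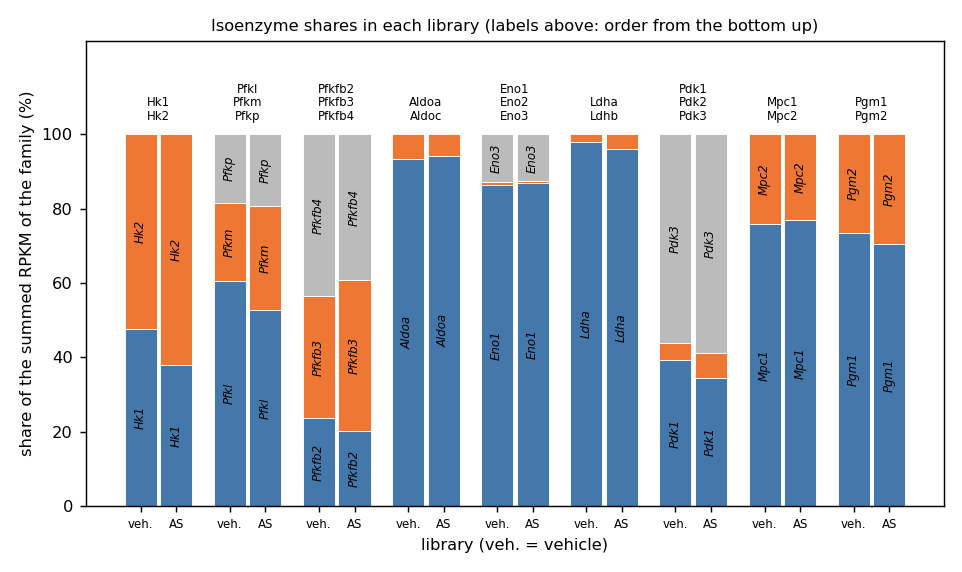
Share of each isoenzyme in the summed RPKM of its family (%, stacked bars) in the vehicle and the AS library, 1 library each. The visible shifts are those of Hk1 to Hk2 (52.5% to 62.0% Hk2), of Pfkl to Pfkm (21.1% to 28.0% Pfkm, or 12.7% to 17.2% per principal transcript length) and within Pfkfb (33.0% to 40.5% Pfkfb3).

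Pyruvate entry and oxidation differed little. Of the 10 genes, 4 were below 0, which is near the 39.1% of all genes, and the median was 0.04. In either direction, 0 passed 1.5-fold, where 2.01% of all genes fell and 3.56% rose by as much. Under TMM scaling, Dlat, Mpc1 and Pdp1 were below 0 as well. The subunits of the pyruvate dehydrogenase complex had log2 fold changes from -0.06 to 0.10. Pdha1, its catalytic alpha subunit, stood at 75.4 RPKM after AS and 70.3 RPKM after the vehicle, Pdhb 26.7 and 27.9, Dlat 8.44 and 8.24, and Dld 55.9 and 53.0. The ratio of Ldha to Pdha1, the enzymes at the branch point of pyruvate, was 1.23 after AS and 2.36 after the vehicle. The mitochondrial pyruvate carrier genes Mpc1 (3.05 and 2.94 RPKM) and Mpc2 (0.919 and 0.938) and the phosphatase gene Pdp1 (1.69 and 1.62) all had intervals that span 0.

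Among the kinases that inactivate pyruvate dehydrogenase, Pdk1 and Pdk3 were the exceptions in this group. Pdk1, a known HIF-1 target, stood at 7.50 RPKM after AS and 10.7 RPKM after the vehicle (-0.51, interval -0.58 to -0.44). Pdk3 stood at 12.8 and 15.3 RPKM (-0.26), and Pdk2 1.48 and 1.27 (0.21), the latter from 210 and 204 reads with an interval that spans 0. Pdk1 and Pdk3, the more abundant kinases, were therefore both lower.

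Of the 5 listed glycogen genes, 4 were below 0 and Stbd1 rose. The 13 glycogen genes of the further list described at the end were mixed, with 6 below 0 and a median of 0.05. Gbe1, the branching enzyme, fell by 0.59 on the log2 scale, from 8.85 to 5.84 RPKM, with an interval from -0.70 to -0.50, and did not pass 1.5-fold with 1 RPKM added (-0.53). Gys1, glycogen synthase, stood at 6.61 RPKM after AS and 8.94 RPKM after the vehicle (-0.43). The phosphoglucomutases, which link glucose 6-phosphate to glycogen, stood at 23.3 and 30.9 RPKM for Pgm1 (-0.41) and 9.72 and 11.1 for Pgm2 (-0.19). Stbd1 encodes a protein that binds glycogen and tethers it to membranes. Its gene spans bases 92603041 to 92606579 of chromosome 5 (plus strand). It stood at 52.8 RPKM after AS and 21.4 RPKM after the vehicle, from 5264 and 2412 reads. Its log2 fold change was 1.30 (interval 1.23 to 1.37), the 34th place from the top among all genes.

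The decrease went with the level of a gene. Across the 40 genes, Spearman's rho between the mean RPKM and the log2 fold change was -0.44, and across all 14197 genes it was -0.16. These are correlations across genes of the same 2 libraries and are given as a description. Of the 11 listed genes with a mean of at least 50 RPKM, 9 were below 0 and the median was -0.47, compared with 691 of all 1082 genes at that level and their median of -0.06. Of the 16 listed genes under 10 RPKM, 6 were below 0 and the median was 0.05, compared with 3337 of 9612 genes and a median of 0.10, so the count of low genes was near the background.

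**Figure D4:**
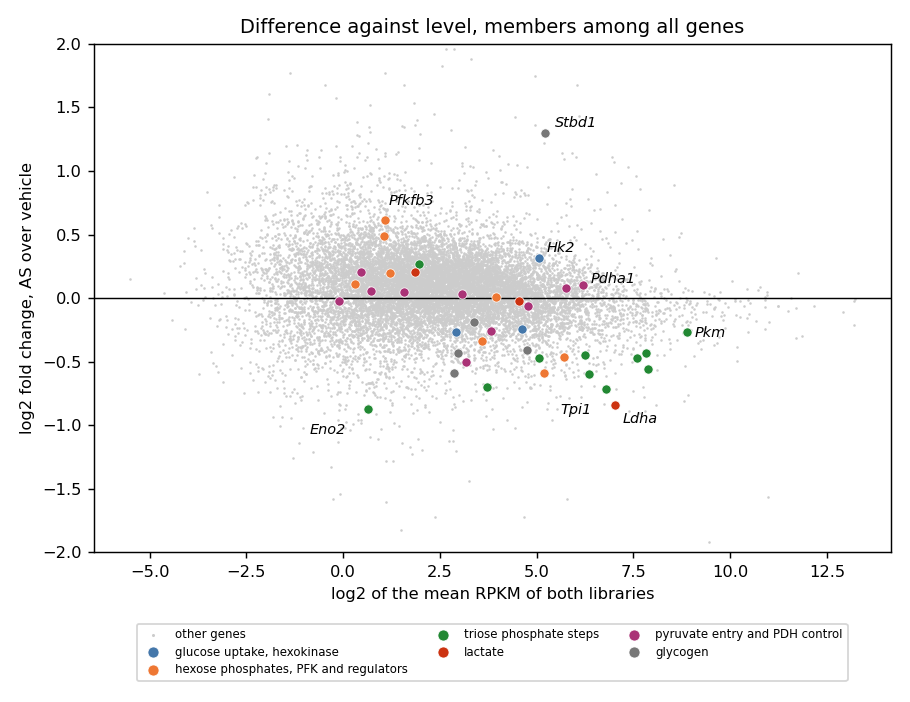
Log2 fold change of AS over vehicle against log2 of the mean RPKM of both libraries for all genes (grey) and the 40 listed genes (coloured by role). The axis ends at 2 in both directions, which leaves out 13 genes, none of them listed here. The abundant enzymes on the right lie below 0, down to -0.84 for Ldha, while Pdha1 at a similar level lies at 0.10.

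Other genes of the pathway were taken from a further list of 87 genes, of which 56 were in the table. They had a median of 0.01 (-0.052 under TMM scaling), and 27 of the 56 were below 0, compared with 39.1% of all genes. Past 1.5-fold, 0 fell and 2 rose, which is near the 2.01% and 3.56% of all genes. Pck2, the mitochondrial phosphoenolpyruvate carboxykinase, rose by 0.87, at 10.1 RPKM after AS and 5.46 RPKM after the vehicle. Slc16a8, the lactate transporter MCT3, rose by 1.16 at a very low level, at 0.763 and 0.285 RPKM from 78 and 33 reads (interval 0.81 to 2.05). All 17 genes of the tricarboxylic acid cycle lay between -0.27 and 0.17, with a median of -0.08, and 13 of them were below 0. Bsg, the partner protein that carries MCT1 to the membrane, stood at 352 RPKM after AS and 443 RPKM after the vehicle (-0.33). The list also held 7 genes in the table that act in the control of glycolysis. These were the transcription factor genes Hif1a, Arnt, Myc, Mlx and Mlxip, and Txnip and Arrdc4, which do not encode transcription factors. Of these 7, 6 were above 0 and Txnip was below, where 39.1% of all genes were below 0. Among them, Hif1a stood at 48.9 and 33.9 RPKM (0.53), Myc 29.7 and 23.1 (0.36), and Mlx 12.5 and 9.81 (0.35). Arnt (0.04), Mlxip (0.07), Arrdc4 (0.07) and Txnip (-0.03) differed little, and the median over all genes was 0.07. These are mRNA levels, and a link between them and the enzymes was not tested.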

How the data were processed

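RNA was taken up in TRIzol and libraries were made with a stranded mRNA kit, 1 library per condition. The submitters' processing notes name fastp 0.23.4, STAR 2.5.3a and featureCounts, and the build GRCh38, a human build, although the symbols are those of mouse. The annotation, the strand setting and the filter on low genes are not given in the sources used here. In the deposited table of 14197 genes the RPKM were computed by the authors from library size and exon length, and no further filter was applied. They also deposited 4 columns of their own comparison, namely a log2 fold change, a log2 mean CPM, a p-value and an FDR, which were not used.

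Exon lengths were those of GENCODE M21 (GRCm38), which has 13502 of the symbols as a single entry. The library size was the value that made RPKM times exon length whole, and reads were taken as recovered where both libraries lay within 0.01 of a whole read. This held for 12735 genes (89.7%), with 42029861 reads for AS and 47372337 for the vehicle in sum, and coordinates are given from this annotation. For Aldoa, listed there as 2 entries, the entry or union that gave whole reads was used. The script was tested on simulated data. Genes past a fold of 2 or 1.5 on the log2 scale, both thresholds from the study's methods, were counted without a test. Isoenzyme shares per length of the principal transcript were added to the plan. So were the relation of level and fold change, library shares, ratios between genes, exon overlap, copies and reference genes. Intervals are 95% Clopper-Pearson intervals. Reads without molecular identifiers are not independent molecules.

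The listed genes, their roles and the other lists were chosen with earlier results of these data known. Every listed gene in the table is named, and of the other lists those beyond 1.5-fold. Bsg, Hif1a, Myc, Mlx, Arnt, Mlxip, Arrdc4 and Txnip were named after their values were seen. Alternatives were 0 or 1 RPKM added, scaling by TMM, by the median of ratios or by the upper quartile, a minimum mean of 1 RPKM, other units for isoenzyme shares and other promoter letters. Computations ran in Python 3.11 with numpy 2.4.6, pandas 2.3.3, scipy 1.17.1 and matplotlib 3.10.9.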

Additional observations from a re-analysis of the deposited data

How the results depend on the processing

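No value of the 9 listed genes beyond 1.5-fold changed sign under any alternative. Scaling by TMM, by the median of ratios or by the upper quartile lowered every log2 fold change by up to 0.07, so that Pfkm, Dlat, Pdp1 and Mpc1 turned below 0 while no other listed gene changed sign. The median of the 40 genes was then -0.32 under each of these 3 scalings, 8 genes fell by more than 1.5-fold, now with Pgk1, and 1 rose, as Pfkfb3 no longer passed. Over all genes, TMM scaling put 2.78% below and 2.75% above that threshold, and upper-quartile scaling put 55 genes below and 75 above a 2-fold threshold, where the main setting had 44 and 94. With 1 RPKM added, which understates low genes by construction, 4 of the 40 genes fell and 1 rose by more than 1.5-fold. At that setting 0.916% of all genes fell and 1.33% rose by as much. The median of the 40 genes was -0.24, against 0.05 over all genes. With a minimum mean of 1 RPKM, which leaves out Mpc2, the median was -0.26. Among the other pathway genes, the 3 scalings put 1 gene past 1.5-fold downward and turned the median to -0.052 (-0.057 with the upper quartile). In that list, 1 RPKM added and the minimum mean each left 0 genes above 2-fold and 1 above 1.5-fold, and the minimum gave a median of 0.021. The letters CACGTG were in a promoter window of 15.4% of the listed genes, and ACGTG or GCGTG in 76.9%, compared with 11.7% and 68.1% of all genes. Counting depth limits Eno2, Ldhb, Pdk2, Mpc1, Mpc2, Tigar and Pdp1, the genes with the widest intervals. The error between dishes could not be measured. No paired analysis was possible because there is 1 library per condition.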

Other observations

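Gapdh was set beside 12 other genes that are often used as references in real-time PCR, a list written after the value of Gapdh was seen and before theirs. All 12 were in the table, and their median log2 fold change was -0.06. Of these, 0 were lower than Gapdh (-0.45). Actb, the cytoskeletal actin gene, was closest to it, at 207 RPKM after AS and 275 RPKM after the vehicle (-0.41), followed by Ppia (-0.35) and Hprt (-0.30). Ywhaz (0.03), Tfrc (-0.01), B2m (-0.04) and Sdha (-0.05) lay nearest to 0, and Tbp, at 4.88 and 3.94 RPKM, was the highest (0.30). The ratio of Gapdh to Actb differed by 1.02-fold between the libraries, and the ratio of Gapdh to Ywhaz by 1.39-fold. With 1 library per condition these are values of 2 libraries and not of the conditions.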
